A study of Mus musculus with 2 samples.

Results

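The genes described mark satellite cells or their resting state, and they are 10 of the 26100 genes listed in both libraries. They were taken by symbol, from a list drawn up with earlier results of these data known. Calcr, Cd34, Vcam1, Cxcr4, Sdc3, Sdc4, Cd28 and Met encode proteins of the cell surface, Chrdl2 a secreted protein and Barx2 a transcription factor. The study profiled 2 mouse cultures by single-cell RNA sequencing of transcript 3' ends, in which a unique molecular identifier (UMI) tags every captured molecule. In the MEF library were embryonic fibroblasts of the mouse, grown in MEF media. In the iMPC library were induced myogenic progenitors, made from such fibroblasts with MyoD+F/R/C, the muscle regulator MyoD plus a treatment known here only by its abbreviation. Both cultures had the genotype Tg:Pax7-nGFP/C57BL6;DBA2, so the Pax7 reporter was shared by the controls. The series' design text speaks of a stable iMPC clone, and the MEF sample carries the same protocol text as the iMPC sample, against its own treatment label. Each group had 1 library. There was therefore no replicate check and no test, and every interval below is an exact 95% interval for counting error only.

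Satellite cells are the stem cells of skeletal muscle. They lie between the fibre and its basement membrane, express Pax7, rest until injury, and then divide as myoblasts that switch on Myog and later muscle genes such as Ckm. Their surface proteins anchor them in this niche and receive growth factors, and several serve as handles for sorting. None of these surface genes belongs to muscle alone: Cd34 and Vcam1 also mark endothelium and mesenchymal cells, and Cd28 and Cxcr4 are known from leukocytes.

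RefSeq promoter windows were at hand for 6 of the 10 members. The 250 bases before the RefSeq start are shown for Sdc3 and Sdc4, which were higher in Pax7-positive than in Myog-positive cells, for Cxcr4, which had no UMI in MEF cells, and for Cd34, which was highest in Dcn-positive cells. The window of Met is not shown because 157 of its bases lie in a GENCODE exon of Met, nor are the 2 windows of Calcr, which had few UMIs. The Sdc4 window lies inside the Sdc4 gene of GENCODE, past its 5' end, but in no GENCODE exon. The windows shown are in the build GRCm38.p6, which the submitters' processing notes also name, 5' to 3' in the gene's direction, with each CG dinucleotide in capitals.
Sdc3 (chr4:130792287-130792536, plus strand): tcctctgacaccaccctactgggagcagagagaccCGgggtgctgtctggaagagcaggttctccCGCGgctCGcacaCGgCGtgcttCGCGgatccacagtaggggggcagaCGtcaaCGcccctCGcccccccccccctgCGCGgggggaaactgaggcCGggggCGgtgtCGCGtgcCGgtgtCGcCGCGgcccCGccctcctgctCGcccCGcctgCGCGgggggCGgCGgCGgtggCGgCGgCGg
Sdc4 (chr2:164443189-164443438, minus strand): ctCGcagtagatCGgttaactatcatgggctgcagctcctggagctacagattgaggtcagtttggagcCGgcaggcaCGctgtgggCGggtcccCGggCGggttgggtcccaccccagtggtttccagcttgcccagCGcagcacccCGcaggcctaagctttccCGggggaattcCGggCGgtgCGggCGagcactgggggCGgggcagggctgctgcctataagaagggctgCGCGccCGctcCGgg
Cxcr4 (chr1:128592300-128592549, minus strand): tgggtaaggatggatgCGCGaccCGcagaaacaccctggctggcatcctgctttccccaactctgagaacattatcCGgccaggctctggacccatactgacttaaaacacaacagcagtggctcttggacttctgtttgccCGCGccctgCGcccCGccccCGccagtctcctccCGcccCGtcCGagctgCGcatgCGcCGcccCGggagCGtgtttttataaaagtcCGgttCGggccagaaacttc
Cd34 (chr1:194938571-194938820, plus strand): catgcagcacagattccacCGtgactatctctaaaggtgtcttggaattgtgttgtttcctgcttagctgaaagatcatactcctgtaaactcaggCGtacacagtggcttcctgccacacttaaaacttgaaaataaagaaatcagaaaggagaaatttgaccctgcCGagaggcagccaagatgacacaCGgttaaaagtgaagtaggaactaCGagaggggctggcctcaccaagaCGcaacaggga
The window of Sdc3 held 32 CG dinucleotides at 76.4% G and C, that of Sdc4 19 at 68%, that of Cxcr4 19 at 61.2%, and that of Cd34 6 at 46.4%. Of all 32851 windows of this length 92.1% held a CG, with a median of 6. Cd34 thus lay at the median and the other windows above it. On both strands, the E-box letters CANNTG (in 66.2% of all windows), CAGCTG, a form of the E-box (13%), the RBPJ letters TGGGAA (21.6%), the homeodomain letters TAATTA (4.84%) and the AP-1 letters TGACTCA (4.46%) had no match in these 4 windows. The Met window held 1 match each of the E-box, RBPJ and AP-1 letters, and 1 of the 2 Calcr windows held 1 E-box match. A match or its absence describes only the letters of a window, and counts of transcript 3' ends do not measure promoter use.

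In GENCODE M21, on the same assembly, all 10 members are protein-coding genes. On chromosome 1 lie Cd28 (60716800 to 60773359, plus strand), Cxcr4 (128588199 to 128592293, minus strand) and Cd34 (194938819 to 194961279, plus strand), and on chromosome 6 Calcr (3685680 to 3764714, minus strand) and Met (17463800 to 17573980, plus strand). Sdc4 lies on chromosome 2 (164424247 to 164443887, minus strand), Vcam1 on chromosome 3 (116109949 to 116129688, minus strand) and Sdc3 on chromosome 4 (130792537 to 130826319, plus strand). Chrdl2 lies on chromosome 7 (100006172 to 100034728, plus strand) and Barx2 on chromosome 9 (31846044 to 31913462, minus strand).

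Cells were sorted into sets by UMIs of genes that are not members. The MEF library gave 6043 cells with a median of 18929 UMIs, and the iMPC library 9349 cells with a median of 20846. Of the iMPC cells, 2180 (23.3%) had at least 1 Pax7 UMI and no Myog UMI and are called the Pax7 set. In this set 1288 cells had a UMI of Top2a, a gene of dividing cells, and 892 had none. The Myog set (at least 5 Myog UMIs, at most 1 Ckm UMI) held 1724 cells, the Ckm set (at least 5 Ckm UMIs) 1037 and the Dcn set (at least 5 UMIs of the fibroblast gene Dcn) 553, while 4001 cells (42.8%) were in no set. Median UMIs were 18729.5 in the Pax7 set, 23857.5 in the Myog set, 42148 in the Ckm set and 18064 in the Dcn set. The Pax7 and Dcn sets shared 110 cells, 5.05% of the former and 19.9% of the latter. The libraries shared 16 barcodes of kept cells.

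All 7 satellite cell markers reached 5 CPM (UMIs of a gene per 1000000 UMIs of the set) in the Pax7, Myog and Dcn sets. They summed to 628 CPM in the Pax7 set, 405 CPM in the Myog set and 340 CPM in the Ckm set. The Dcn set stood at 186 CPM and MEF cells at 18.7 CPM. Of the 7, 4 were at least 2-fold higher in the Pax7 than in the Myog set. Pax7 itself, which defines the Pax7 set, is among the 7. In the Pax7, Myog and Ckm sets Cdh15 stood at 172, 169 and 160 CPM, and Itga7 at 80.1, 90.9 and 143 CPM. The 7 fibroblast markers summed to 6191 CPM in MEF cells, 5032 CPM in the Dcn set, 1339 CPM in the Pax7 set and 294 CPM in the Myog set. No immune or glial marker reached 5 CPM in any set, and Ptprc, the common leukocyte gene, was at 0 in the Pax7 and Dcn sets. Of 6 endothelial markers only Egfl7 reached 5 CPM, and Kdr, Tie1 and Emcn were at 0 in the Pax7 set.

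Cd28 and the transcription factor Barx2 had similar levels over the sets. Cd28 encodes a receptor that co-stimulates T cells. It stood at 24.7 CPM (23.3 to 26.2) in the Pax7 set, 6.13 CPM in the Myog set, 4.11 CPM in the Dcn set and 1.52 CPM in the Ckm set, with 10 UMIs (0.0847 CPM) in all MEF cells. Barx2, a homeobox gene, stood at 22.2 CPM (20.8 to 23.6) in the Pax7 set, 4.61 CPM in the Myog set, 3.12 CPM in the Dcn set and 2.01 CPM in the Ckm set, with 3 UMIs (0.0254 CPM) in MEF cells. Of the sets, both were thus highest in the Pax7 set. The 4001 iMPC cells of no set stood at 17.2 CPM for Cd28 and 16.3 CPM for Barx2. They held 1475 and 1400 UMIs of these genes, against 1088 and 977 in the Pax7 set. A Myog UMI was in 70.4% of them and a Pax7 UMI in 40.3%. In these cells Met stood at 15.8 CPM, Cxcr4 at 6.19 CPM, Vcam1 at 37.5 CPM and Sdc4 at 210 CPM. Within the Pax7 set, cells with and without Top2a differed by less than counting error. Cd28 stood at 24.9 CPM with and 24.3 CPM without a Top2a UMI, and Barx2 at 21.3 and 24.1 CPM. Every other step in their order of levels exceeded counting error, which does not cover spread between cells. In the Dcn set the levels rested on few cells. The 38 Barx2 UMIs there came from 14 cells, with 13 in 1 cell. The 50 Cd28 UMIs came from 21 cells, also with 13 in 1 cell.

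Cxcr4, the receptor of the chemokine Cxcl12, had no UMI in MEF cells, with an interval of 0 to 0.0312 CPM. It stood at 6.68 CPM (5.94 to 7.49) in the Pax7 set, 6.99 CPM (6.25 to 7.80) in the Myog set, 1.64 CPM in the Dcn set and 0.555 CPM in the Ckm set. The Pax7 and Myog sets did not differ beyond counting error. Met, the receptor of hepatocyte growth factor, stood at 21 CPM (19.7 to 22.4) in the Pax7 set, 12.1 CPM in MEF cells, 9.81 CPM in the Myog set, 4.44 CPM in the Dcn set and 3.33 CPM in the Ckm set. It was the only member at 5 CPM with a higher level in Pax7-positive cells with Top2a (23.9 CPM) than without (15.1 CPM) beyond counting error. The Dcn and Ckm sets did not differ beyond it.

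Vcam1 encodes an adhesion protein that binds integrins. It was highest in MEF cells at 191 CPM (188 to 193), followed by the Pax7 set at 42.6 CPM, the Dcn set at 24.3 CPM, the Myog set at 12.8 CPM and the Ckm set at 3.80 CPM. Cd34, a sialomucin of stem and endothelial cells, stood at 13.1 CPM (11.1 to 15.3) in the Dcn set, 8.70 CPM in MEF cells, 1.54 CPM in the Pax7 set, 0.346 CPM in the Myog set and 0.0617 CPM in the Ckm set. Both genes were thus higher in MEF cells than in any myogenic set. Of the 68 Cd34 UMIs in the Pax7 set, 50 (73.5%) came from the 110 cells that were also in the Dcn set. Cd34 stood at 21.9 CPM in those cells and at 0.438 CPM in the 1931 Pax7-positive cells without a Dcn UMI.

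The syndecans are heparan sulfate proteoglycans that bind growth factors and matrix. Sdc4 stood at 237 CPM (232 to 241) in the Pax7 set, 209 CPM in the Dcn set, 117 CPM in the Myog set, 89.8 CPM in the Ckm set and 57.1 CPM in MEF cells. Sdc3 stood at 64.4 CPM (60 to 69.1) in the Dcn set, 47.1 CPM in MEF cells, 31 CPM in the Pax7 set, 8.49 CPM in the Myog set and 3.19 CPM in the Ckm set. Sdc4 was lowest in MEF cells, while Sdc3 was there above every myogenic set except Pax7-positive cells without Top2a, which stood at 50.4 CPM and did not differ from MEF cells beyond counting error. Counts of 3' ends are not scaled by transcript length, and levels of different genes are set side by side only as CPM.

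Calcr and Chrdl2 were near absent. Calcr, the calcitonin receptor known from resting satellite cells, had 11 UMIs (0.25 CPM, 0.125 to 0.447) in the Pax7 set, of which 10 lay in cells with a Top2a UMI. The levels with and without Top2a, 0.336 and 0.07 CPM, did not differ beyond counting error (log2 2.27, -0.55 to 7.71). It had 2 UMIs in the Ckm set and none in the MEF, Myog and Dcn sets. Chrdl2, a secreted antagonist of bone morphogenetic proteins, had 12 UMIs in all iMPC cells, 7 of them in the Myog set and 1 in the Pax7 set, and none in MEF cells. Expression of either below these levels was not detectable at this depth.

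**Figure D1:**
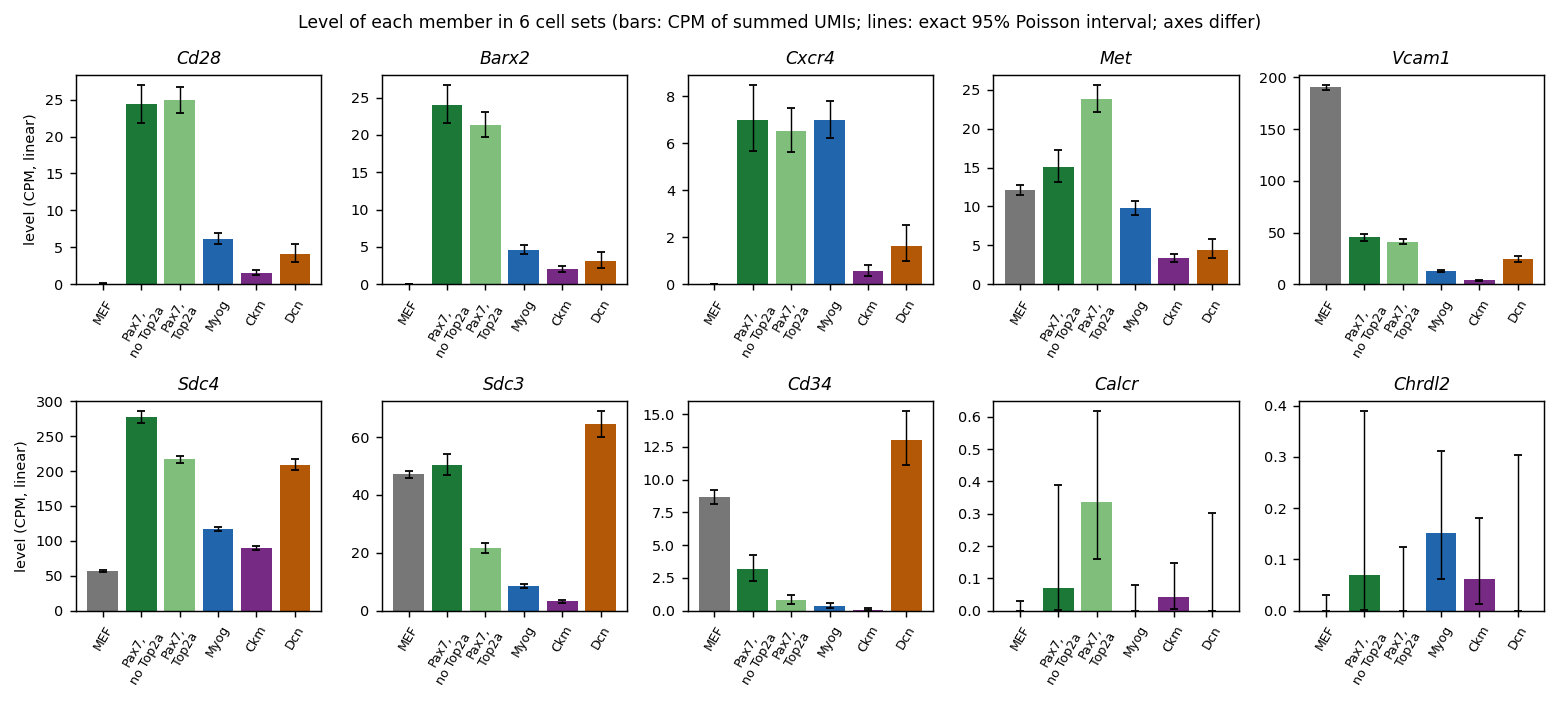
Level of each of the 10 genes (y axis, CPM, linear, a separate scale per panel) in 6 cell sets (x axis). Bars are CPM of summed UMIs and lines exact 95% Poisson intervals: Cd28 and Barx2 peak in both parts of the Pax7 set, Vcam1 in MEF cells at 191 CPM, and Sdc3 and Cd34 in the Dcn set.

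The share of cells with a UMI was compared after each cell had been thinned at random to 5000 UMIs, which left out 284 MEF cells and no iMPC cell. Sdc4 was found in 61.6% of the Pax7 set (59.5 to 63.7), 63.5% of the Dcn set, 38.8% of the Myog set, 28.9% of the Ckm set and 22.7% of MEF cells. Without thinning these shares were 91.9%, 93.1%, 80.7%, 84.8% and 56.3%. Vcam1 was found in 56.2% of MEF cells (54.9 to 57.5) and 17.9% of the Pax7 set, or 84.7% and 46.2% without thinning. At this depth Sdc4 was the only member seen in most Pax7-positive cells, and Vcam1 the only one seen in most MEF cells.

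Cd28 was found in 9.68% of the Pax7 set (8.47 to 11), 2.32% of the Myog set and 2 MEF cells (0.0347%), with 23.8%, 8.99% and 0.165% unthinned. Barx2 was found in 7.94% (6.84 to 9.15), 2.03% and 0.0174%, with 18.2%, 6.73% and 0.0496% unthinned. Met was found in 8.67% of the Pax7 set and Sdc3 in 13.9%, against 29.4% and 35% unthinned. Cxcr4 was found in 3.49% of the Pax7 set and 4.41% of the Myog set, against 10.6% and 14.9% unthinned. Cd34 was found in 0.55% of the Pax7 set and 5.42% of the Dcn set, against 1.38% and 14.8% unthinned. At this depth 22.2% of Pax7-positive cells showed none of the 10 genes, 42.1% showed 1 and 9.17% showed at least 3. In the Ckm set 66.9% showed none.

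Free RNA can put UMIs into cells that do not express a gene. iMPC barcodes with 200 to 600 UMIs, at a median of 430, stood in for it. If each cell received as many such UMIs, 0.427% of cells would show Sdc4 at 5000 UMIs, 0.119% Sdc3 and 0.0286% Cd28. The lowest share of Cd28 among the iMPC sets was 0.542% (0.112 to 1.58) in the Dcn set, or 3 of 553 cells. That equals the limit used for a count of 0 there. The 110 cells that the Dcn set shared with the Pax7 set held 19 of its 50 Cd28 UMIs. The part of free RNA in this share was not tested.

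**Figure D2:**
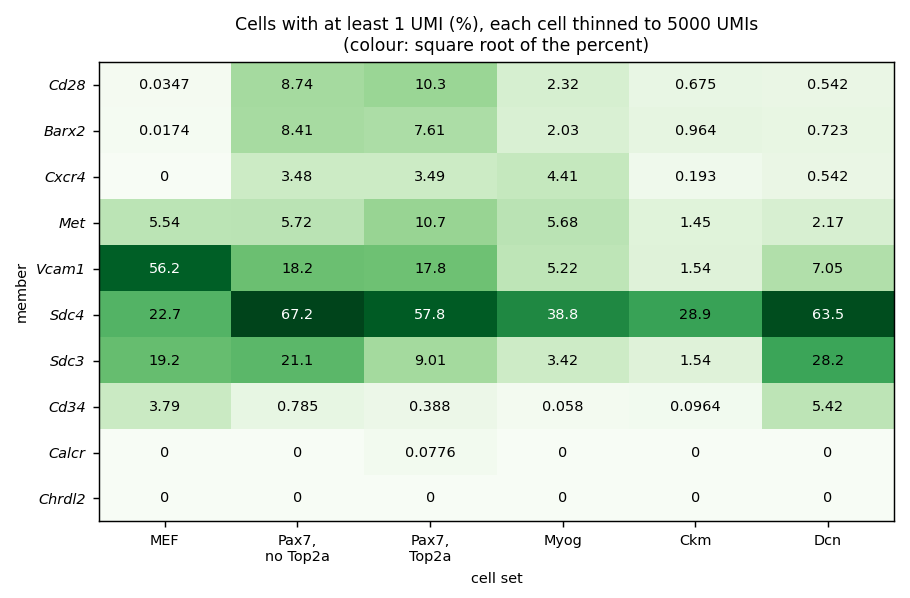
Percent of cells with at least 1 UMI of each gene (rows) in 6 cell sets (columns), every cell thinned to 5000 UMIs, with colour by the square root of the percent. Sdc4 reaches 67.2% in Pax7-positive cells without Top2a, Vcam1 56.2% in MEF cells, and Calcr and Chrdl2 stay at or near 0.

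The first comparison set the Pax7 set against MEF cells, the culture of origin. A gene was counted as apart when its CPM differed by 2-fold or more and the higher value was at least 5 CPM. Of 8 members at 5 CPM, 4 were higher in the Pax7 set, where 15.8% of the 10221 genes tested were, and 2 were higher in MEF cells, where 19.9% were. Barx2 was 874-fold higher in the Pax7 set (log2 ratio 9.77, 8.22 to 12.05) and Cd28 292-fold (log2 8.19, 7.30 to 9.25). In MEF cells Barx2 had 3 UMIs, no more than the floor used for Cxcr4, and Cd28 had 10. Cxcr4 was at least 263-fold higher, with its absence in MEF cells set at a floor of 3 counts over all those cells. Sdc4 was 4.14-fold higher (log2 2.05, 2.01 to 2.09). Vcam1 was 4.48-fold higher in MEF cells (log2 -2.16, -2.23 to -2.09) and Cd34 5.63-fold (log2 -2.49, -2.87 to -2.14). Met (log2 0.80) and Sdc3 (log2 -0.60) were under 2-fold. The members' median was 1.42 against -0.08 over all genes. When cells in more than 1 set were left out, the Cd34 ratio was -4.33. With every cell's CPM weighted equally the Cd28 ratio was 7.49. Library and culture cannot be told apart here.

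All kept iMPC cells gave 4 of 8 members higher than in MEF cells, beside 15.5% of genes, and 3 lower, beside 21.9%. Cd28, Barx2, Cxcr4 and Sdc4 were again the higher ones. Sdc3 joined Vcam1 and Cd34 on the MEF side at a log2 ratio of -1.25, but at -0.90 when every cell's CPM was weighted equally, where Barx2 was at 9.53 against 8.84. The level of Met was 12.6 CPM over iMPC cells against 12.1 CPM over MEF cells, a log2 ratio of 0.06 (-0.04 to 0.15).

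Within the iMPC culture, the Pax7 set was set against the Myog set, the cells that had begun to differentiate. Of 7 members at 5 CPM, 6 were higher in the Pax7 set, beside 12.8% of 9660 genes, and 0 in the Myog set, beside 7.02%. Their median log2 ratio was 1.74 against 0.17 over all genes. Barx2 led at 4.81-fold (log2 2.27, 2.05 to 2.49), followed by Cd28 at 4.03-fold (log2 2.01, 1.82 to 2.21), Sdc3 at 3.66-fold (log2 1.87) and Vcam1 at 3.33-fold (log2 1.74). Met stood at 2.14-fold and Sdc4 at 2.03-fold (log2 1.02). Scaling by the median gene ratio, which takes off the shift of 0.17, put Met at 0.93 and Sdc4 at 0.85, under 2-fold, and Sdc4 was at 0.94 with at least 2 Pax7 UMIs per cell. Cxcr4 was at -0.07 (-0.30 to 0.17). When sets were assigned after thinning each cell to 8000 UMIs, the ratios were larger: 2.86 for Cd28, 2.38 for Vcam1, 2.03 for Met and 0.73 for Cxcr4. Fibroblast markers were also higher in the Pax7 set, 6 of 6 at 5 CPM, and their part in these ratios was not tested.

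From the Myog to the Ckm set, the differentiated cells, members were lower again. Of 6 members at 5 CPM, 5 were higher in the Myog set, beside 15.1% of 9125 genes, and 0 in the Ckm set, beside 6.52%. Their median was -1.65 against -0.25 over all genes. Cxcr4 was 12.6-fold lower in the Ckm set (log2 -3.66, -4.28 to -3.09), Cd28 4.03-fold (log2 -2.01), Vcam1 3.36-fold (log2 -1.75), Met 2.95-fold (log2 -1.56) and Sdc3 2.66-fold (log2 -1.41). Sdc4 was lower by less than 2-fold (log2 -0.38). With sets assigned at 8000 UMIs per cell, which left 265 cells in the Ckm set, the count was 2, Vcam1 and Met. Cd28 (log2 -0.77) and Sdc3 (log2 -0.86) were then under 2-fold, and Cxcr4, at 4.51 CPM in the Myog set and a log2 ratio of -4.69, was under the limit of 5 CPM. With doublets removed Vcam1 was at -2.64. The Ckm set had the deepest cells.

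Against the Dcn set, the fibroblast-marked cells of the same culture, 4 of 8 members were higher in the Pax7 set, beside 6.9% of 9945 genes, and 2 in the Dcn set, beside 11.7%. Barx2 was 7.11-fold higher (log2 2.83, 2.36 to 3.34), Cd28 6.02-fold (log2 2.59), Met 4.74-fold (log2 2.24) and Cxcr4 4.07-fold (log2 2.02). With every cell's CPM weighted equally Barx2 was at 3.65, and with doublets removed Cd28 was at 3.36. Cd34 was 8.46-fold higher in the Dcn set (log2 -3.08). The 110 cells in both sets hold most of the Cd34 UMIs of the Pax7 set, and without Pax7-positive cells that hold a Dcn UMI the ratio was -4.90. Sdc3 was 2.08-fold higher there (log2 -1.05), and at -0.95 with mitochondrial and ribosomal protein genes left out of the total. Vcam1 (log2 0.81) and Sdc4 (log2 0.18) were under 2-fold. The Dcn set also carried muscle genes. Its myocyte markers summed to 3451 CPM against 737 CPM in the Pax7 set, and 6 of 6 were higher in the Dcn set. A Myog UMI was in 38.5% of Dcn set cells, while the Pax7 set was chosen without any. The part of these cells in the ratios was not tested.

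**Figure D3:**
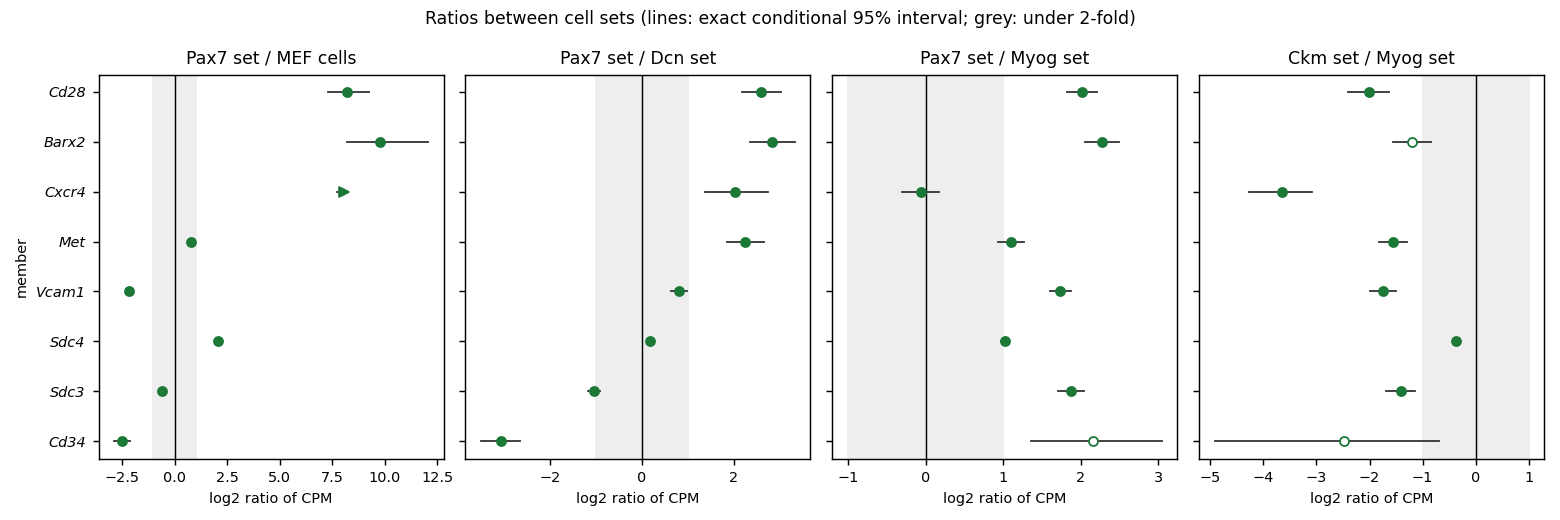
Log2 ratio of CPM (x axis, a separate scale per panel) for the 8 genes that reached 5 CPM in some set, in 4 comparisons. Lines are exact conditional 95% intervals, and the grey band marks under 2-fold. The triangle is a value at the floor of 3 counts, and open circles are genes under 5 CPM in both sets. Barx2 and Cd28 lie to the right in the first 3 panels and Cxcr4 lies farthest left in the last, at -3.66.

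Division was compared inside the Pax7 set. Of 7 members at 5 CPM, 1 was higher in cells without a Top2a UMI, beside 4.94% of 9611 genes, and 0 in cells with one, beside 5.95%. That member was Sdc3, at 50.4 against 21.7 CPM (log2 1.21, 1.06 to 1.37). Cd34, under the limit of 5 CPM, stood at 3.15 CPM without and 0.774 CPM with Top2a (log2 2.02, 1.27 to 2.82). Met was lower without Top2a by less than 2-fold (log2 -0.66, -0.88 to -0.44) and Sdc4 higher (log2 0.36, 0.30 to 0.41). Cd28 (log2 -0.03, -0.22 to 0.15), Cxcr4 (log2 0.10, -0.26 to 0.46) and Barx2 (log2 0.18, -0.02 to 0.37) did not differ beyond counting error. Fibroblast markers summed to 1984 CPM without and 1029 CPM with Top2a, and the cells without it were shallower, with medians of 14938.5 and 21775 UMIs. The part of fibroblast genes and depth in the Sdc3 and Cd34 differences was not tested.

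Along Pax7 itself, iMPC cells without a Myog UMI were split by 0, 1, 2 to 3, and 4 or more Pax7 UMIs, in 1420, 889, 890 and 401 cells. Cd28 stood at 13.7, 23.7, 23.7 and 28.5 CPM and Met at 11.2, 19.2, 21.8 and 22.7 CPM. Sdc3 stood at 47.9, 35.7, 29.7 and 25.5 CPM, the opposite order, while Vcam1 stayed between 42.4 and 46.1 CPM. Barx2 stood at 18.3, 20.3, 24.1 and 21.9 CPM. Cd28 and Met were thus lowest and Sdc3 highest in cells without Pax7. Over the same steps Dcn went from 289 to 8.42 CPM, Top2a from 153 to 423 CPM and median UMIs from 15974.5 to 21049, and their part was not tested.

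**Figure D4:**
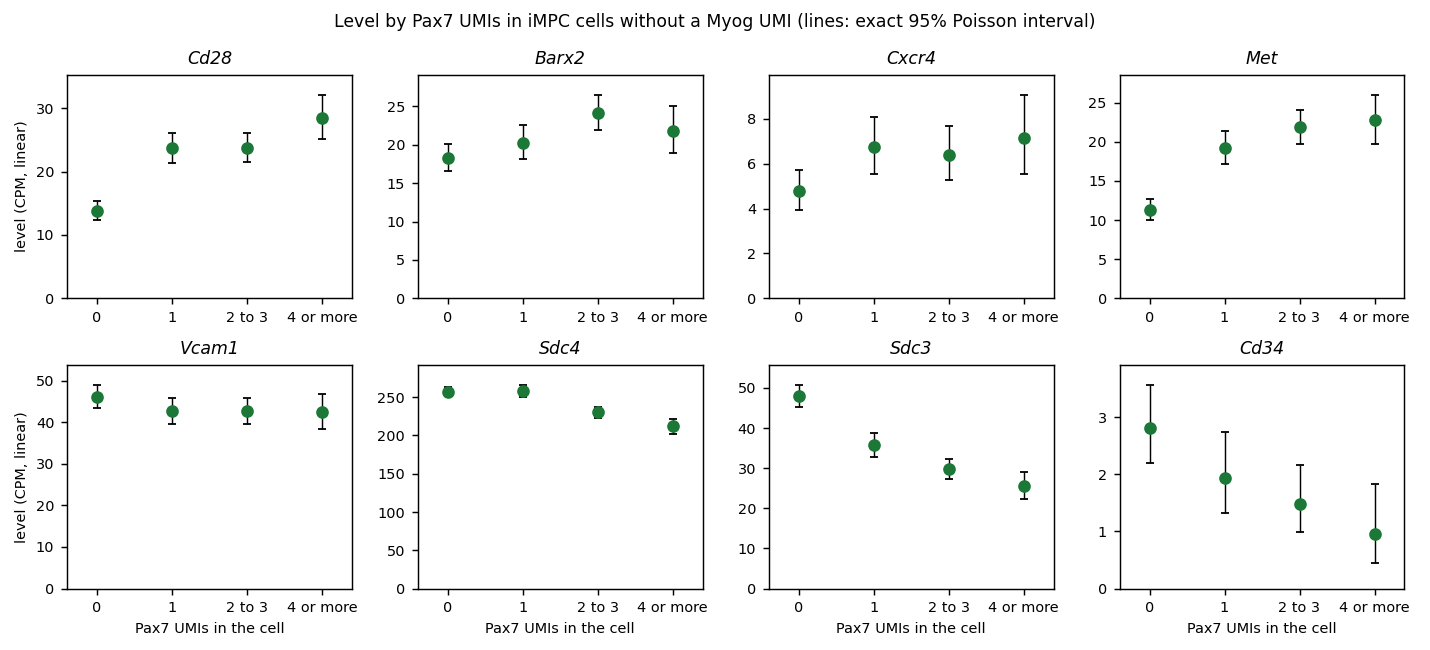
Level (y axis, CPM, linear from 0) of 8 genes by the number of Pax7 UMIs in the cell (x axis), in iMPC cells without a Myog UMI, with exact 95% Poisson intervals. Cd28 goes from 13.7 to 28.5 CPM and Sdc3 from 47.9 to 25.5 CPM.

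Pairs of members were then looked up in single Pax7-positive cells, thinned to 5000 UMIs, for the 15 pairs of the 6 genes seen in at least 100 such cells. Sdc3 and Barx2 were found together in 41 cells, where 24.1 would be found if they were independent (log2 odds ratio 1.04, 0.46 to 1.60). Vcam1 and Sdc4 shared 279 cells against 241 (log2 0.76, 0.41 to 1.12), and Sdc4 and Barx2 125 against 107 (log2 0.75, 0.24 to 1.28). Vcam1 and Barx2 shared 43 against 31 (log2 0.66, 0.10 to 1.20). Sdc3 and Met shared 17 against 26.4 (log2 -0.77, -1.60 to -0.02). The intervals of the other 10 pairs held 0. In cells with Top2a the first pair stood at 1.44 and in cells without it at 0.70, whose interval of -0.13 to 1.49 held 0. Sdc3 and Met stood at -0.21 and -1.05 there, both with 0 inside the interval. The cells share 1 library, and these odds ratios are descriptions.

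**Figure D5:**
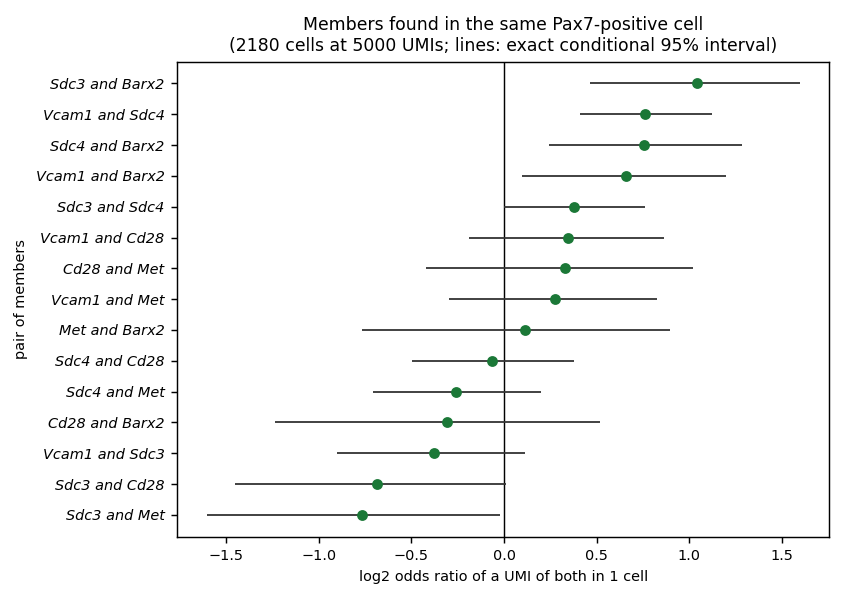
Log2 odds ratio (x axis) of finding UMIs of both genes of a pair (y axis) in 1 cell of the Pax7 set, with exact conditional 95% intervals, all cells at 5000 UMIs. Sdc3 with Barx2 lies highest at 1.04 and Sdc3 with Met lowest at -0.77.

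Likeness was measured as the root mean square difference of log2(CPM + 1) over 6 cell sets, each gene centred on its mean, among 10961 genes. The nearest gene to Cd28 was Barx2, at 0.204, and the nearest to Barx2 was Cd28. In single cells, though, the pair shared 14 cells where independence gives 16.7 (log2 odds ratio -0.31, -1.24 to 0.52). Gpc3 (0.229) and Fzd4 (0.308) followed for Cd28, and Fzd4 (0.359) and Pgf (0.366) for Barx2. Rcn3 was nearest to Sdc3 (0.155), Pde5a to Sdc4 (0.127), Brinp3 to Cd34 (0.172), Chst2 to Vcam1 (0.306) and Lifr to Cxcr4 (0.307). The sets share a library and its depth, except for the MEF cells.

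Ligands and partners of the members were read from a list of 24 genes. Between the Pax7 and Myog sets, 13 reached 5 CPM, of which 7 were higher in the Pax7 set (12.8% of all genes) and 3 in the Myog set (7.02%), with a median of 1.07 against 0.17 over all genes. Against the Dcn set, 1 of 13 was higher in the Pax7 set (6.9% of all genes) and 7 lower (11.7%). The median was then -1.33 against -0.02 over all genes. Hgf, the ligand of Met, stood at 5.52 CPM in the Pax7 set, 0.649 CPM in the Myog set and 27 CPM in the Dcn set, so ligand and receptor were highest in different sets. Cxcl12, the ligand of Cxcr4, stood at 180 CPM in MEF cells, which had no Cxcr4 UMI, and 1.42 CPM in iMPC cells. Col5a3, a collagen V chain, stood at 107 CPM in the Pax7 set and 392 CPM in the Dcn set. Ramp1, a partner of calcitonin-type receptors, was lower in the Pax7 than in the Myog set (log2 -3.19), as was Itga4, a subunit of the Vcam1 receptor (log2 -1.65). The related Ramp2 and Ramp3 went the other way. Ramp2 stood at 16.3 CPM in the Pax7 set and 11.8 CPM in the Myog set, and Ramp3 at 51 and 29.6 CPM. The Cd28 ligand Cd80 stood at 0.886 CPM in the Pax7 set and 4.44 CPM in the Dcn set, and Cd86 had no UMI in either.

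Of 14 further satellite cell surface genes, 13 reached 5 CPM between the Pax7 and Myog sets. Of the 13, 4 were higher in the Pax7 set (12.8% of all genes) and 0 in the Myog set (7.02%). Their median of 0.10 lay below the 0.17 over all genes. Notch3 (log2 2.31) and Egfr (log2 2.11) led, while Ncam1 (log2 -0.77) and Cdh2 (log2 -0.25) were lowest. Of a list of 16 genes tied to quiescence, 5 were higher in the Pax7 set and 2 in the Myog set, beside the same shares of 12.8% and 7.02%. Their median was 0.72 against 0.17. The list also held Fos, Jun, Egr1 and Nr4a1, and Mstn, which was highest in the Ckm set at 103 CPM. Its counts and medians are therefore not a measure of the resting state. The Notch target Heyl (log2 2.23) and Pax7 itself (log2 2.41, which the sets were built on) led. Mstn, the muscle growth inhibitor myostatin (log2 -3.83), and Cdkn1c, a cell cycle inhibitor (log2 -3.62), were higher in the Myog set. Between Pax7-positive cells without and with Top2a, 0 of 15 genes of the quiescence list at 5 CPM were 2-fold apart in either direction. The shares over all genes were 4.94% and 5.95%, and the median was 0.17 against -0.05 over all genes.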

How the data were processed

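Per the file headers and the labels' protocols, the authors deposited matrices of raw UMI counts per gene and barcode from the 10x 3' assay, with no normalization. The submitters' processing notes name Cell Ranger 4.0, Seurat 3.2.3 and GRCm38.p6. The annotation is not given in the sources used here, nor how the 6113 MEF barcodes, each with at least 503 UMIs, were selected.

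iMPC barcodes with at least 8036 UMIs, 10% of the 99th percentile of the top 10000, were kept as cells. Cells with over 20% mitochondrial UMIs were removed from both libraries. The libraries held 282903287 (iMPC) and 118541302 (MEF) UMIs. Doublets were kept in the main setting and removed in an alternative with Scrublet, which marked 377 iMPC cells (4.03%). In MEF its threshold marked 2, so the 249 highest scores were taken.

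UMIs were summed per cell set and given as CPM, with exact Poisson intervals for levels, exact conditional intervals for ratios and odds ratios, and Clopper-Pearson intervals for shares, all at 95%. A count of 0 was set to a floor of 3 counts in ratios. Ratios and intervals were tested on simulated Poisson counts, the model that the intervals assume. The simulation held no spread between cells, so it could not show whether the intervals are too narrow for it. Among members at 5 CPM in the Pax7 set, the variance of UMIs per cell ranged from 1.41 (Met) to 3.96 (Barx2) times the mean. Python 3.11.15, numpy 2.4.6, scipy 1.17.1, pandas 2.3.3 and scanpy 1.11.5 were used. Thinning was without replacement. Genes on the other strand overlap Cd34, Vcam1, Sdc3 and Barx2, and microRNA genes lie inside Calcr on its own strand. Whether any of them share counts with members was not tested.

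The members, cell sets and lists were chosen with earlier results of these data known. Named were all members, the 2 genes per list and direction with the largest ratio between the Pax7 and Myog sets, some partners of members, and up to 3 genes most like each member. The genes most like Met are not reported here. Other list genes and markers were named after their values were seen. Of 6 motifs searched, all are reported. Alternatives changed the UMI and mitochondrial limits, doublets, set rules, scaling, free RNA, thinning and call thresholds.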

Additional observations from a re-analysis of the deposited data

Results flagged for a closer look

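Barcodes of the iMPC library with 200 to 600 UMIs, too few to be kept as cells, held UMIs of 9 members above the floor of 3 counts (0.141 CPM). Over 48846 such barcodes Sdc4 stood at 41.4 CPM, Sdc3 at 11.5 CPM, Vcam1 at 9.22 CPM, Met at 4.23 CPM, Barx2 at 3.67 CPM, Cd28 at 2.78 CPM, Cxcr4 at 2.49 CPM, Cd34 at 0.800 CPM and Chrdl2 at 0.235 CPM. Chrdl2 rested on 5 UMIs and was the only member with a higher level there than in the kept iMPC cells (0.0516 CPM), with overlapping intervals.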

How the results depend on the processing

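Over the alternatives, 170 recomputed counts of members apart stayed within 1.5 times the main count and 6 did not. With at least 10 CPM asked, 1 member was higher in MEF cells than in the Pax7 set and 1 higher in the Myog than in the Ckm set, where sets assigned at 8000 UMIs gave 2. Inside the Pax7 set, 1 member was higher with Top2a at 1.5-fold, and 2 were higher without it at 1 CPM. Without mitochondrial and ribosomal protein genes in the total, 1 member was higher in the Dcn than in the Pax7 set. Of the single values, 521 stayed within their error and 188 moved beyond it, and none of those called reversed. Leaving out Pax7-positive cells with a Dcn UMI, and splitting pairs by Top2a, were chosen after seeing the data. No paired analysis was possible because each group has 1 library. Calcr and Chrdl2 were too rare at this depth to be counted in any comparison. The Calcr ratio given by Top2a had an interval that held 0.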
